A study of Homo sapiens with 4 samples.

Results

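Transcript levels of 31 direct target genes of the transcription factor p53 were read from RNA-seq gene counts of HUES8 cells, a line of human embryonic stem cells kept in mTeSR1 on Matrigel. The 31 genes form a named list, matched by symbol, and all 31 were found among the 59050 genes of the table. All 31 also passed the filter on low counts, which left 17564 genes for testing. Libraries with the genotype label CPT2 KO numbered 2 and were set against 2 with the label WT, and all 4 carry the same treatment label, WT. CPT2 encodes carnitine palmitoyltransferase 2, which feeds long-chain fatty acids into mitochondrial oxidation. The labels name neither the edited part of CPT2 nor whether the knockout is 1 clone, and they do not say whether replicates were separate cultures. All p-values rest on the spread among the 4 libraries, and that spread may be technical. The comparison asks how the p53 target genes of these stem cells differ with the CPT2 genotype label.

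In most cells p53 is kept low by MDM2, a ubiquitin ligase that marks it for destruction, and by MDM4, which masks its activation domain. DNA damage and other stresses lift that brake, and p53 then binds response elements and switches on genes for cell cycle arrest, apoptosis and DNA repair, together with MDM2 itself, which closes a feedback loop. Human pluripotent stem cells are known for a short G1 phase and a low threshold for p53-dependent death. The gene of p53 itself is not on the list and was not analysed here.

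Library totals ran from 16887789 to 20460031 counts, and 1 count was worth 0.0485 to 0.0603 CPM (counts scaled to library size with the TMM factors of edgeR). The CPT2 transcript itself had 233 and 170 counts in CPT2 KO-labelled libraries, against 52 and 72 counts in the WT-labelled ones (log2 fold change 1.78 with SE 0.28, adjusted p = 0.0209 in edgeR), so it was higher where the label says knockout, and every direction below is between libraries as labelled. With replicate 1 labelled CPT2 KO left out it was no longer called (adjusted p = 0.138 in edgeR). Of 7 stem cell markers tested, 6 had positive log2 fold changes and 1 was called higher, ZFP42, with 178 and 191 CPM with the CPT2 KO label, against 85.8 and 102 CPM with the WT label (log2 fold change 0.98 with SE 0.14, adjusted p = 0.01401 in edgeR). POU5F1 had 2109 and 2300.3 CPM with the CPT2 KO label, against 2017 and 1884 CPM with the WT label. Replicate 1 labelled WT stood apart in the summed level of 12 hypoxia response genes, at 6145 CPM. The sum was 1996 and 1393 CPM in the libraries labelled CPT2 KO and 1361 CPM in replicate 2 labelled WT. Those 12 genes were listed because this library stood apart in earlier results of these data. Mitochondrial genes took 4.15% of its counts, against 7.84% and 7.73% with the CPT2 KO label and 7.21% in replicate 2 labelled WT. Mesendoderm markers, 9 tested of 10 listed, all had positive log2 fold changes with the CPT2 KO label. Of these, 5 were called higher, NODAL, GATA4, LEFTY1, FGF8 and WNT3, beside 0.37% of all tested genes. The 10 markers summed to 342 and 111 CPM against 11.4 and 14.6 CPM with the WT label. CER1, EOMES, MIXL1 and FOXA2 were not called. CER1 had 124 and 11.1 CPM with the CPT2 KO label, against 0.163 and 0 CPM with the WT label. SOX17, below the filter, had 46 and 7 counts in CPT2 KO-labelled libraries, against 0 and 0 counts in the WT-labelled ones. Neuroectoderm markers had 2 positive and 4 negative log2 fold changes, with SOX1 and SIX6 called lower, and OTX2 at 1.23 and PAX6 at 0.96 not called. They summed to 111 and 117 CPM against 172 and 142 CPM, fibroblast markers to 489 and 467 against 516 and 517 CPM, and amnion and trophoblast markers to 6.14 and 6.33 against 4.72 and 5.39 CPM, with HAND1 and CGA at 0 counts throughout. Most of the fibroblast sum came from THY1 and COL1A2. THY1 had 231 and 239 CPM with the CPT2 KO label, against 284 and 280 CPM with the WT label. COL1A2 had 187 and 161 CPM with the CPT2 KO label, against 163 and 187 CPM with the WT label. Of the other fibroblast markers, DCN had 0 and 0 counts in CPT2 KO-labelled libraries, against 0 and 3 counts in the WT-labelled ones. COL3A1 had 0 and 1 counts in CPT2 KO-labelled libraries, against 0 and 7 counts in the WT-labelled ones. In bulk RNA, fewer cells of a type and less RNA per cell cannot be told apart.

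None of the 31 p53 target genes differed between the genotype labels at an adjusted p of 0.05 in edgeR. Across all 17564 tested genes the same fit called 65 genes higher with the CPT2 KO label (0.37%) and 11 lower (0.0626%), so a count of 0 among 31 genes is near the background. At an unadjusted p under 0.05 there were 6 of the 31, PLK2, BAX, PERP, TRIAP1, SPATA18 and PMAIP1, all with positive log2 fold changes, beside 9.08% of all tested genes, 4.83% with positive and 4.25% with negative values. DESeq2 called 1 target higher, PLK2, beside 0.848% of all tested genes higher and 0.262% lower, and limma-voom called 0, beside 0.313% higher and 0.0399% lower. PLK2 was also the 1 target called with no filter on low counts, beside 0.892% of genes higher and 0.607% lower, and with the replicate number as a block, beside 1.16% higher and 0.615% lower. The 31 log2 fold changes (CPT2 KO label over WT label) had a median of 0.011 and ran from -0.47 for APAF1 to 1.39 for PLK2, and the median over all tested genes was 0.0012. Of the 31, 16 were positive and 15 negative. The libraries labelled CPT2 KO both lay above both labelled WT for 12 targets, beside 21.1% of all tested genes, and both lay below for 7, beside 19.8%. The 95% interval of the log2 fold change stayed within a 2-fold change either way for 25 of the 31 targets and within a 1.5-fold change for 7. Over all tested genes the intervals stayed within a 2-fold change for 11082 of 17564 and within a 1.5-fold change for 6208 of 17564. The share of the targets was thus the larger at 2-fold and the smaller at 1.5-fold. Smaller differences were not detectable for most targets with 2 libraries a group.

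**Figure D1:**
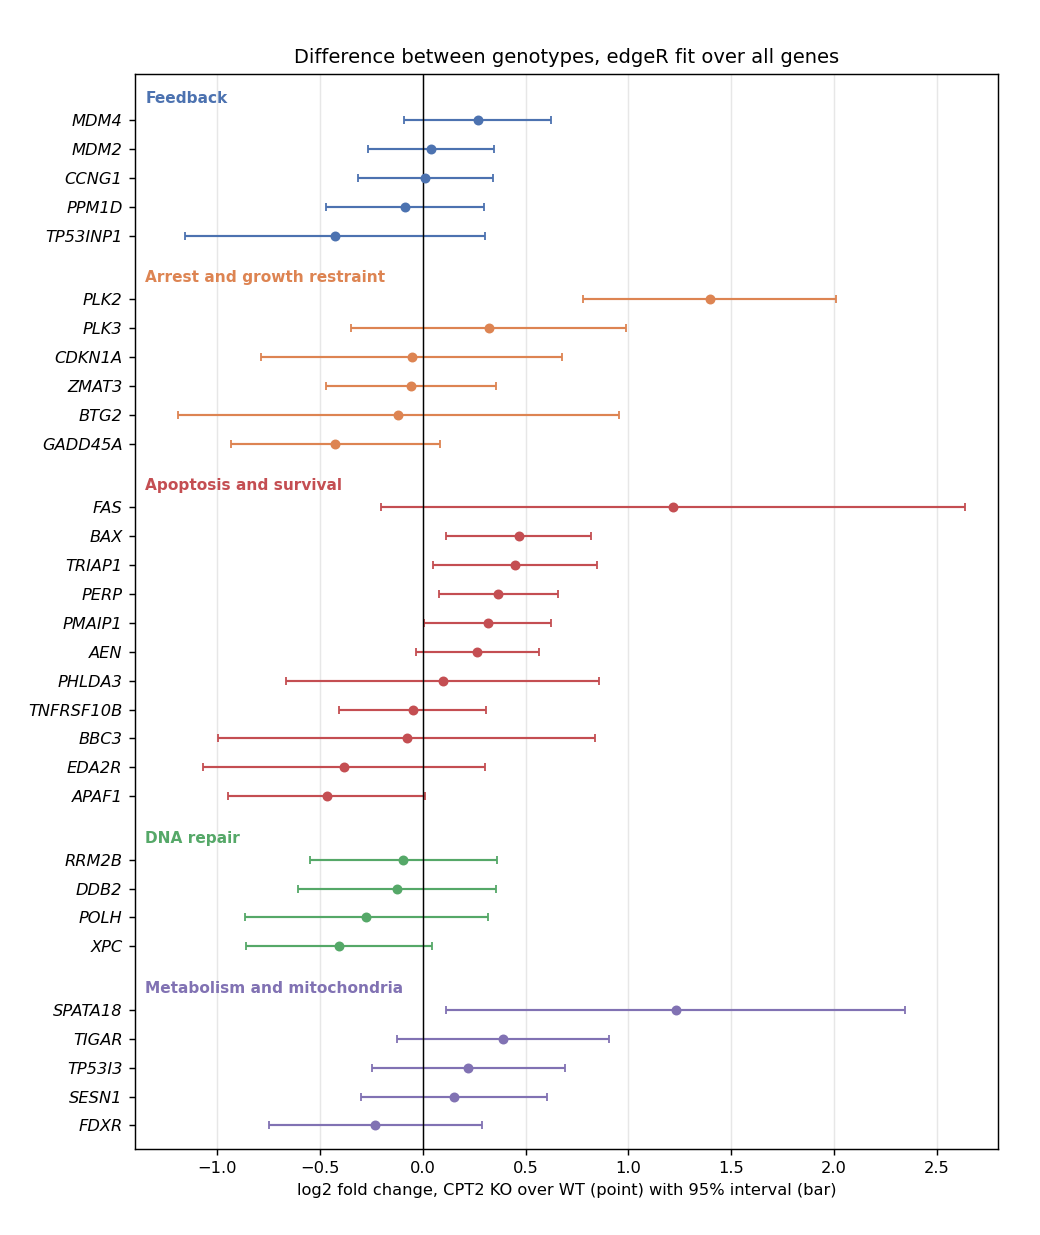
Log2 fold change of each of the 31 p53 target genes, CPT2 KO label over WT label, with its 95% interval from the edgeR fit over all genes (n = 2 each), grouped by role. PLK2 lies farthest from 0 at 1.39, 5 of the 11 apoptosis and survival genes sit between 0.26 and 0.47 with narrow bars, and all 4 DNA repair genes lie below 0 with intervals that cross it.

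Per unit of gene length, CCNG1 was the most abundant target. Levels per length are given as TPM, the length-scaled counterpart of CPM, computed with the gene lengths of the deposited table, and are used only to order genes. CCNG1 averaged 529 TPM over the 4 libraries, followed by PMAIP1 at 128, PERP at 104, TRIAP1 at 75.8, BAX at 68.6, RRM2B at 63.04, TNFRSF10B at 54.9 and AEN at 48.8 TPM. The ranges over the 4 libraries of CCNG1, PMAIP1 and PERP overlapped neither each other nor any gene below them, while neighbours from TRIAP1 down to AEN overlapped. The next 9 genes, from XPC at 22.1 to SESN1 at 12.6 TPM, each overlapped the next in the order and held MDM2 at 20.2 and MDM4 at 17.02 TPM. The arrest gene CDKN1A was among the low ones at 5.68 TPM, with PLK2 at 6.45 and BTG2 at 4.23 TPM. SPATA18 at 0.873 and FAS at 0.421 TPM were the lowest of all. Of the top 5 genes by level per length, 4 belong to the apoptosis and survival group.

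**Figure D2:**
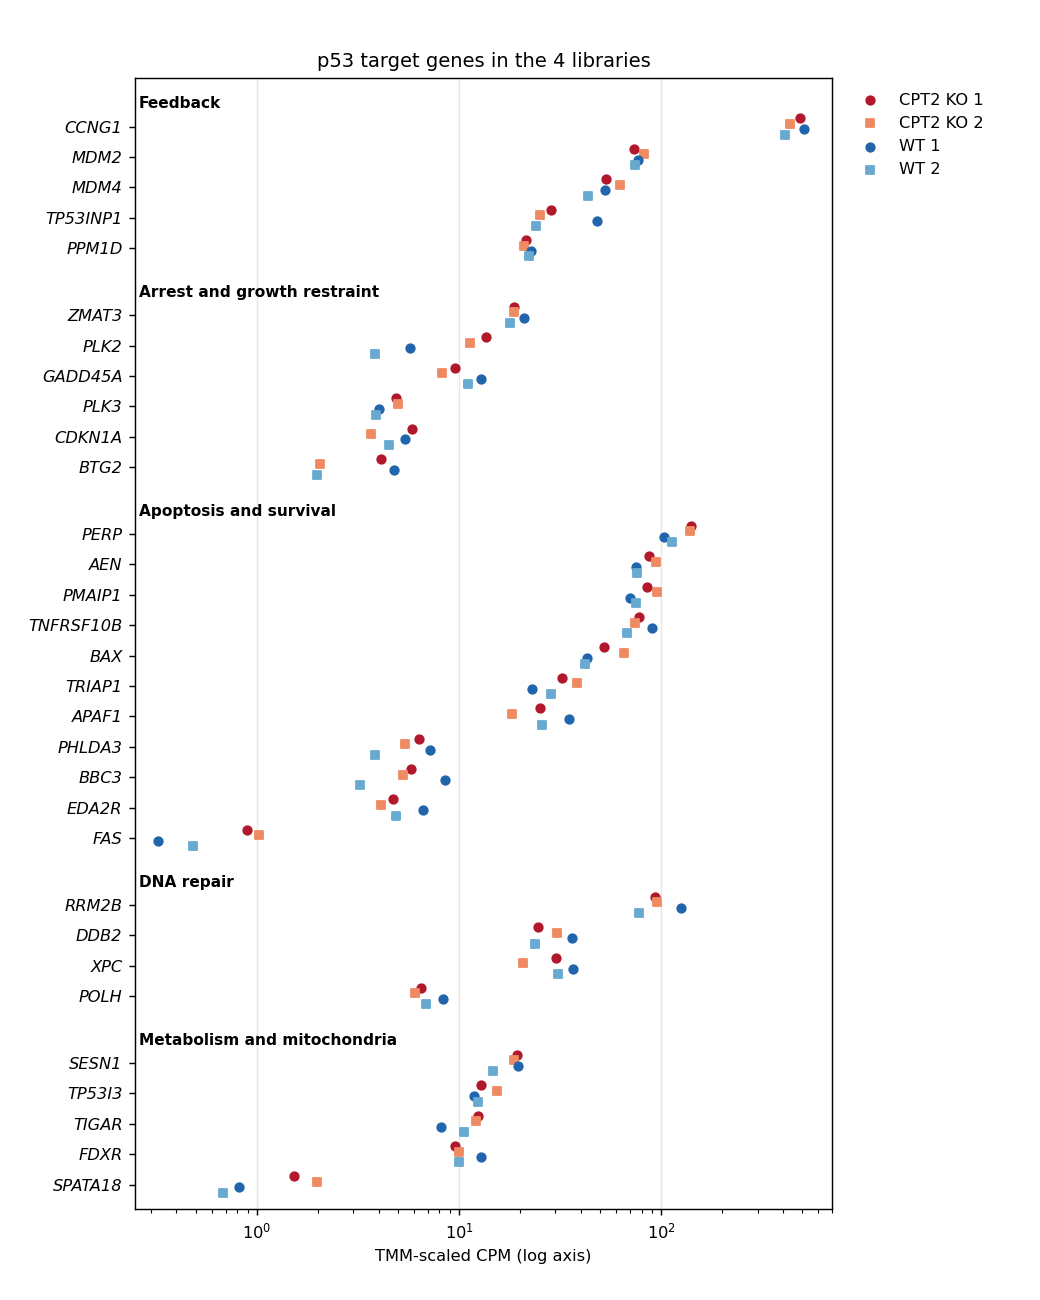
TMM-scaled CPM (log axis) of the 31 p53 target genes in each of the 4 libraries, 1 point per library, grouped by role and ordered by mean level in the libraries labelled CPT2 KO. The points of most genes lie close together. PLK2 and SPATA18 are among the genes with both CPT2 KO points right of both WT points. For TP53INP1, BBC3 and RRM2B the replicate 1 labelled WT lies to the right of the other 3 libraries.

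The window around the annotated start of each target was searched for the consensus half-site of p53, a 10-base palindromic motif that reads the same on both strands and of which a full response element holds a pair, 0 to 13 bases apart. RefSeq windows (GRCh38.p14, 250 bases before to 50 after the start) were found for 26 of the 31 genes, in 38 windows. A half-site matched in 6 of the 38 windows (15.8%), in AEN, DDB2, FAS, FDXR, PLK2 and SESN1, and in 6.63% of all 35116 windows. A full element within the window was matched in DDB2 alone, with its first base at position +6, against 10 of all 35116 windows. Its sequence, named after it was found, lies at chr11:47214979-47214999 on the plus strand, with both half-sites in capitals:
DDB2 element: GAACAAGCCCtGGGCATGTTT
The 3 windows below are shown because they hold a half-site and belong to genes with the most positive or most negative log2 fold change of their role group, PLK2 (chr5:58460037-58460336, minus strand), FAS (chr10:88991181-88991480, plus strand, 1 of 3 windows of the gene) and FDXR (chr17:74872945-74873244, minus strand, 1 of 2 windows). Each is written 5′ to 3′ along the gene, with the half-site in capitals, its first base at -132 in PLK2, -122 in FAS and -11 in FDXR.
PLK2 window: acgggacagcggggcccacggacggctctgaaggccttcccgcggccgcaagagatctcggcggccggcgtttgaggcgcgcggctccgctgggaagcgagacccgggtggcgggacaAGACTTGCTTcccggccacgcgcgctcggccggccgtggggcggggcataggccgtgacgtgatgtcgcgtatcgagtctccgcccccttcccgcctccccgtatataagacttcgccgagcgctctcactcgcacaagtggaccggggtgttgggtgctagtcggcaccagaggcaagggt
FAS window: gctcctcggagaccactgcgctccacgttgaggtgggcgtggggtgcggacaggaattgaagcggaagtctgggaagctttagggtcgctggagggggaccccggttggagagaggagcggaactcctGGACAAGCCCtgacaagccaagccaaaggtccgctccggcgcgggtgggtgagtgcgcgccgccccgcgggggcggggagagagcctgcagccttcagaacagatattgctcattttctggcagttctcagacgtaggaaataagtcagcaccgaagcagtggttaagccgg
FDXR window: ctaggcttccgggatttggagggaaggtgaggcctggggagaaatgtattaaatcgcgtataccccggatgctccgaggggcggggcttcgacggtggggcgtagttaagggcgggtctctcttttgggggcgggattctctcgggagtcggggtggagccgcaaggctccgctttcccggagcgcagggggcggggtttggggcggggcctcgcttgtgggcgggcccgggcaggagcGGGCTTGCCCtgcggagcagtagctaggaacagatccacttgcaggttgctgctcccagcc
The half-site of FDXR was also the one matched in AEN, GGGCTTGCCC. These matches describe letters only, response elements of many p53 targets lie outside such windows, and no binding was measured.

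No feedback gene passed the test, and the median log2 fold change of the 5 was 0.011. MDM2, the ubiquitin ligase of p53 and its best known feedback target, stood at 73.6 and 82.2 CPM in CPT2 KO-labelled libraries, against 76.96 and 74.6 CPM in the WT-labelled ones. The groups overlapped, and the interval of its log2 fold change, -0.27 to 0.35, leaves out a 1.5-fold difference in either direction. MDM4, the inhibitory partner of MDM2, had 53.4 and 62.5 CPM with the CPT2 KO label, against 52.8 and 43.5 CPM with the WT label (log2 fold change 0.27 with SE 0.16, adjusted p = 0.647 in edgeR). Both libraries labelled CPT2 KO lay above both labelled WT, by a margin within the spread. PPM1D, a phosphatase that switches off the kinases upstream of p53, had 21.3 and 20.8 CPM with the CPT2 KO label, against 22.6 and 22.2 CPM with the WT label, both values with the CPT2 KO label below both with the WT label by a small margin. CCNG1, a cyclin that brings a phosphatase to MDM2, had 489 and 436 CPM with the CPT2 KO label, against 509.8 and 408 CPM with the WT label (log2 fold change 0.011 with SE 0.15, adjusted p = 0.989 in edgeR). The highest and the lowest of its 4 values were both labelled WT, so the pair of replicates spanned the whole range.

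TP53INP1, a nuclear protein that helps the kinase HIPK2 phosphorylate p53 and also acts in autophagy, was the feedback gene that varied most. It had 28.6 and 25.2 CPM with the CPT2 KO label, against 48.4 and 24.1 CPM with the WT label (log2 fold change -0.43 with SE 0.31, adjusted p = 0.7099 in edgeR). Replicate 1 labelled WT was the high one, at 2.01 times replicate 2, and the other 3 libraries lay close together. Without replicate 2 labelled WT the gene was called lower (log2 fold change -0.85, adjusted p in edgeR = 0.00154), and without replicate 1 labelled WT its log2 fold change was 0.16 (adjusted p = 0.9996 in edgeR).

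Among the 6 genes of arrest and growth restraint none passed the test, and PLK2 had the largest difference of all 31 targets. PLK2, polo-like kinase 2, acts in centriole duplication and is induced by p53 and by growth signals. It had 276 and 188 counts in CPT2 KO-labelled libraries, against 105 and 79 counts in the WT-labelled ones, or 12.5 ± 1.65 CPM in CPT2 KO-labelled libraries and 4.76 ± 1.31 CPM in the WT-labelled ones (SD, n = 2 each). Both libraries labelled CPT2 KO lay well above both labelled WT, and the groups did not overlap. The fitted difference was 2.63-fold (log2 fold change 1.39 with SE 0.28, adjusted p = 0.0742 in edgeR, unadjusted p = 0.000437), short of the threshold over all genes. PLK2 was called in 5 of 13 alternatives, which were DESeq2 (adjusted p = 0.00508), no filter on low counts (adjusted p = 0.0002998 in edgeR), the replicate number as a block (adjusted p = 0.0105 in edgeR) and edgeR with 1 library labelled WT left out (adjusted p = 6.9e-05 without replicate 1 and 0.0105 without replicate 2). With replicate 1 or replicate 2 labelled CPT2 KO left out, the adjusted p of PLK2 in edgeR was 0.384 or 0.121. The gene lies on chromosome 5 at 58453982 to 58460260 (minus strand) in GENCODE 29 on GRCh38 and shares no exon position with another gene there. Mesendoderm markers were also higher in both libraries labelled CPT2 KO, as given above, and their part in the PLK2 difference was not tested.

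CDKN1A encodes p21, the inhibitor of cyclin-dependent kinases through which p53 halts the cell cycle. It had 118 and 61 counts in CPT2 KO-labelled libraries, against 100 and 93 counts in the WT-labelled ones, and 5.84 and 3.68 CPM with the CPT2 KO label, against 5.42 and 4.51 CPM with the WT label. The groups overlapped and the interval of its log2 fold change was -0.79 to 0.68, so a difference inside it was not detectable. PLK3, a stress-responsive relative of PLK2, had 4.85 and 5.001 CPM with the CPT2 KO label, against 4.01 and 3.88 CPM with the WT label, with both CPT2 KO values above both WT values and a log2 fold change of 0.32 (adjusted p = 0.777 in edgeR).

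GADD45A, which binds PCNA and p21 and restrains growth after damage, had the most negative log2 fold change of this group and its highest level per length. It had 9.503 and 8.26 CPM with the CPT2 KO label, against 12.8 and 11.1 CPM with the WT label (log2 fold change -0.43 with SE 0.23, adjusted p = 0.612 in edgeR). Both values labelled CPT2 KO lay below both labelled WT. BTG2, an antiproliferative cofactor of mRNA deadenylation, differed more between replicates than between labels, with 4.11 and 2.05 CPM with the CPT2 KO label, against 4.77 and 1.99 CPM with the WT label. Replicate 1 was the higher library in both groups, 2.397-fold with the WT label and 2.01-fold with the CPT2 KO label. ZMAT3, an RNA-binding protein that steers splicing downstream of p53, had 18.7 and 18.7 CPM with the CPT2 KO label, against 21.03 and 17.96 CPM with the WT label, and stayed within its replicate spread.

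Genes of apoptosis and survival had the highest median difference of the role groups in the main fit, 0.26 on the log2 scale over 11 genes. None passed the test. Under a stricter filter on low counts FAS dropped out, and the median of the other 10 genes was 0.18, below 0.22 for the metabolism group. Of the 11, both libraries labelled CPT2 KO lay above both labelled WT for 6 and below for 2, beside 21.1% and 19.8% of all tested genes. BAX, the effector that perforates the outer mitochondrial membrane, had 52.2 and 65.3 CPM with the CPT2 KO label, against 43.04 and 41.9 CPM with the WT label. PMAIP1 (NOXA), a BH3-only protein that neutralizes MCL1 and the gene of this group with the highest level per length, had 84.9 and 95.7 CPM with the CPT2 KO label, against 70.1 and 74.99 CPM with the WT label (log2 fold change 0.32 with SE 0.14, adjusted p = 0.5402 in edgeR). PERP, a membrane protein of desmosomes that also promotes apoptosis, had 140.3 and 139 CPM with the CPT2 KO label, against 104 and 113 CPM with the WT label. In all 3 genes the groups did not overlap and the log2 fold changes were small, 0.47 for BAX and 0.37 for PERP (adjusted p = 0.394 and 0.428 in edgeR).

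AEN and TRIAP1 also had groups that did not overlap. AEN, a nuclease that degrades DNA during apoptosis, had 86.7 and 94.1 CPM with the CPT2 KO label, against 74.8 and 75.7 CPM with the WT label. TRIAP1, a small protein that supports survival and carries lipids between mitochondrial membranes, had 32.3 and 38.3 CPM with the CPT2 KO label, against 23.1 and 28.6 CPM with the WT label. Replicate 2 labelled CPT2 KO was the highest library for BAX, PMAIP1, AEN and TRIAP1. Log2 fold changes were 0.26 for AEN and 0.45 for TRIAP1 (adjusted p = 0.6002 and 0.509 in edgeR). Over all 13 alternatives the log2 fold change stayed positive for all 5 genes, between 0.21 and 0.62, and none was called in any.

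BBC3 (PUMA), a BH3-only protein that activates BAX, had 5.79 and 5.303 CPM with the CPT2 KO label, against 8.51 and 3.25 CPM with the WT label. The 2 libraries labelled WT were the extremes, 2.62-fold apart, with the libraries labelled CPT2 KO between them. APAF1, the scaffold of the apoptosome, had 25.3 and 18.3 CPM with the CPT2 KO label, against 34.9 and 25.6 CPM with the WT label (log2 fold change -0.47 with SE 0.22, adjusted p = 0.563 in edgeR). It had the most negative log2 fold change of all 31 targets, the groups did not overlap, and it was called lower without replicate 2 labelled WT (log2 fold change -0.67, adjusted p in edgeR = 0.0341). Replicate 2 labelled CPT2 KO was the lowest library for APAF1.

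The death receptors TNFRSF10B and FAS were far apart in level per length, at 54.9 and 0.421 TPM. TNFRSF10B (DR5), a receptor of the ligand TRAIL, had 77.9 and 73.9 CPM with the CPT2 KO label, against 89.7 and 67.5 CPM with the WT label, with overlapping groups. FAS, the receptor of FAS ligand, had 18 and 17 counts in CPT2 KO-labelled libraries, against 6 and 10 counts in the WT-labelled ones (log2 fold change 1.22 with SE 0.64, adjusted p = 0.609 in edgeR). It had the largest log2 fold change of this group, rests on at most 18 counts a library, and has an interval of -0.21 to 2.64. EDA2R, a receptor of ectodysplasin, had 4.702 and 4.097 CPM with the CPT2 KO label, against 6.67 and 4.85 CPM with the WT label, both CPT2 KO values below both WT values. PHLDA3, which restrains AKT signalling at the membrane, had 6.34 and 5.42 CPM with the CPT2 KO label, against 7.21 and 3.83 CPM with the WT label, the libraries labelled WT again being the extremes.

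All 4 genes of DNA repair and nucleotide supply had negative log2 fold changes, with a median of -0.20, and none passed the test. Replicate 1 labelled WT was the highest library for all 4. RRM2B, a ribonucleotide reductase subunit that supplies nucleotides outside S phase and the gene of this group with the highest level per length, had 93.7 and 95.4 CPM with the CPT2 KO label, against 125 and 77.6 CPM with the WT label (log2 fold change -0.10 with SE 0.20, adjusted p = 0.917 in edgeR). XPC, which recognizes helix-distorting lesions in nucleotide excision repair, had the most negative log2 fold change, with 30.1 and 20.7 CPM with the CPT2 KO label, against 36.7 and 30.97 CPM with the WT label (log2 fold change -0.41 with SE 0.21, adjusted p = 0.596 in edgeR). DDB2, which detects ultraviolet lesions, had 24.6 and 30.4 CPM with the CPT2 KO label, against 36.3 and 23.8 CPM with the WT label, with overlapping groups. POLH, the polymerase that copies past ultraviolet lesions, had 6.48 and 6.09 CPM with the CPT2 KO label, against 8.35 and 6.89 CPM with the WT label, both CPT2 KO values below both WT values. Without replicate 1 labelled WT the median of these 4 genes was 0.038, with 2 positive and 2 negative, and without replicate 2 labelled WT it was -0.40. The hypoxia response sum, given above, was also highest in replicate 1 labelled WT, and its part in the levels of these genes was not tested.

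Genes of metabolism and mitochondria had 4 positive and 1 negative log2 fold changes, a median of 0.22 and 0 calls. Both libraries labelled CPT2 KO lay above both labelled WT for 3 of the 5, SPATA18, TIGAR and TP53I3. They lay below for 1, FDXR, beside 21.1% above and 19.8% below of all tested genes. SPATA18 (MIEAP), which acts in the quality control of mitochondria, had 31 and 33 counts in CPT2 KO-labelled libraries, against 15 and 14 counts in the WT-labelled ones (log2 fold change 1.23 with SE 0.51, adjusted p = 0.511 in edgeR). Both libraries labelled CPT2 KO were above both labelled WT, and its log2 fold change was the largest of this group. TIGAR, a phosphatase that lowers fructose 2,6-bisphosphate and so slows glycolysis, had 12.4 and 12.1 CPM with the CPT2 KO label, against 8.13 and 10.5 CPM with the WT label, again without overlap. TP53I3, a quinone oxidoreductase and the gene of this group with the highest level per length, had 12.9 and 15.5 CPM with the CPT2 KO label, against 11.9 and 12.4 CPM with the WT label (log2 fold change 0.22 with SE 0.21, adjusted p = 0.778 in edgeR). FDXR, the reductase that passes electrons to ferredoxin in mitochondria, had the only negative log2 fold change, with 9.503 and 9.94 CPM with the CPT2 KO label, against 12.8 and 10.05 CPM with the WT label (log2 fold change -0.23 with SE 0.23, adjusted p = 0.789 in edgeR). SESN1, a sestrin that restrains mTORC1, had 19.5 and 18.7 CPM with the CPT2 KO label, against 19.7 and 14.7 CPM with the WT label, replicate 2 labelled WT being the low one.

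The 2 libraries labelled WT differed from each other in 1 direction for most of the list. Replicate 1 was above replicate 2 labelled WT for 24 of the 31 targets (77.4%), against 49.4% of all tested genes. It was the highest of the 4 libraries for 17 targets (54.8%), against 31.8% of all tested genes, and replicate 2 labelled WT was the highest for 0 of the 31, against 19.2%. Replicate 2 labelled WT was the lowest library for 15 targets (48.4%), against 19.4% of all tested genes. The pair differed by over 1.5-fold on the log2(CPM + 0.5) scale for 6 targets, all higher in replicate 1: BBC3, BTG2, TP53INP1, PHLDA3, RRM2B and DDB2, or 19.4% of the list beside 14.9% of all tested genes. For 16 of the 31 targets the WT pair differed by more than the 2 group means did, beside 58.2% of all tested genes. With only 2 libraries a group these shares describe the libraries. The hypoxia sum and mitochondrial share of replicate 1 labelled WT, given above, also stood apart, and their part in these shares was not tested.

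**Figure D3:**
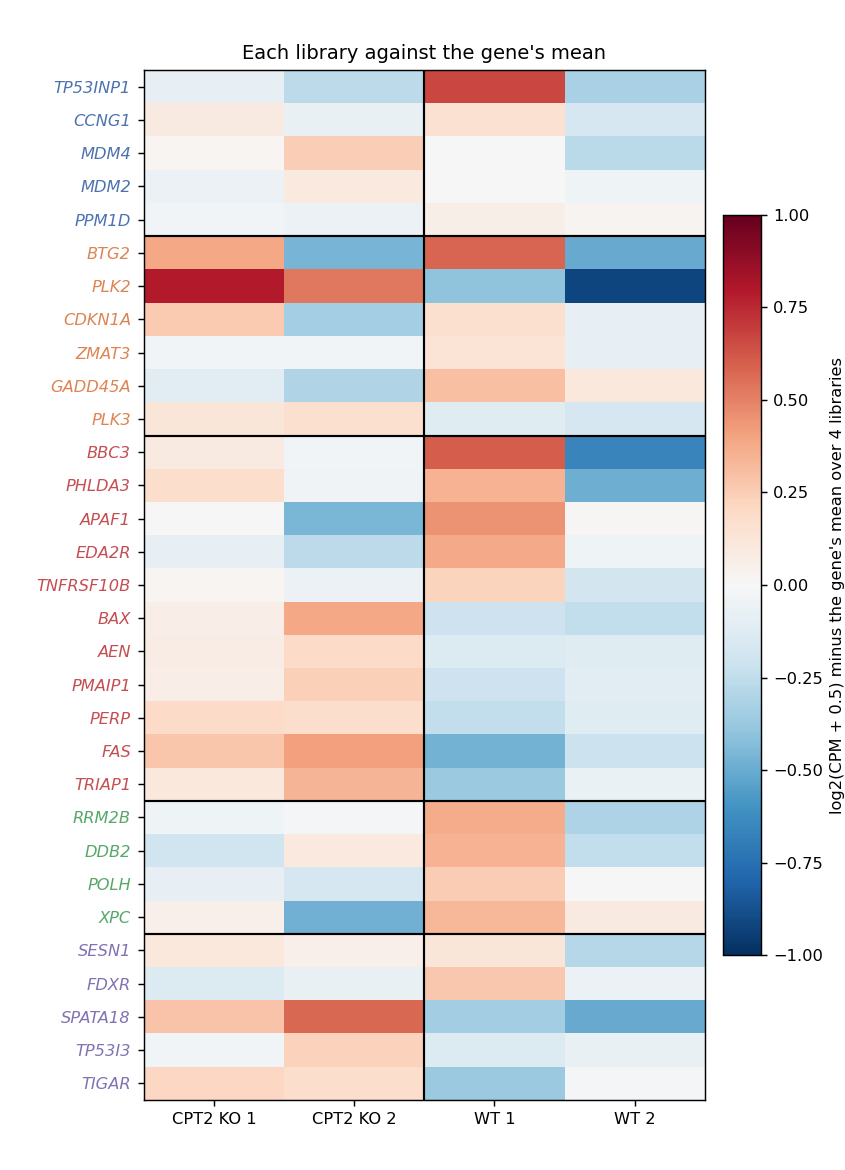
Log2(CPM + 0.5) of each p53 target gene in each library minus its mean over the 4 libraries (red above, blue below), with gene names coloured by role (feedback blue, arrest orange, apoptosis red, repair green, metabolism purple) and, within a role, ordered by the difference between WT replicates 1 and 2. The column of replicate 1 labelled WT is red for most arrest genes and all 4 repair genes. Replicate 2 labelled WT is the lowest library in 15 of the 31 rows. Rows red in both columns labelled CPT2 KO include PLK2, PLK3, BAX, PERP, PMAIP1, AEN, TRIAP1, FAS, TIGAR and SPATA18.

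The list median depended on which library labelled WT was kept. It was 0.22 without replicate 1, with 24 positive and 7 negative genes, and -0.14 without replicate 2, with 13 positive and 18 negative, while the median over all tested genes was 0.016 and 0.017. Without replicate 1 labelled WT, PLK2 was the single target called (0.919% of all tested genes were called higher and 0.296% lower). Without replicate 2 labelled WT, 1 target was called higher, PLK2, and 2 lower, TP53INP1 and APAF1, beside 3.4% higher and 3.87% lower of all tested genes. With replicate 1 or replicate 2 labelled CPT2 KO left out, the list median was -0.023 or 0.092, with 0 targets called beside 0.24% or 0.502% of genes higher and 0.0382% or 0.027% lower. The apoptosis and survival median stayed between 0.21 and 0.32 whichever library was left out, and the metabolism median between 0.18 and 0.35. The arrest median ran from -0.24 to 0.26 and the feedback median from -0.10 to 0.16.

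**Figure D4:**
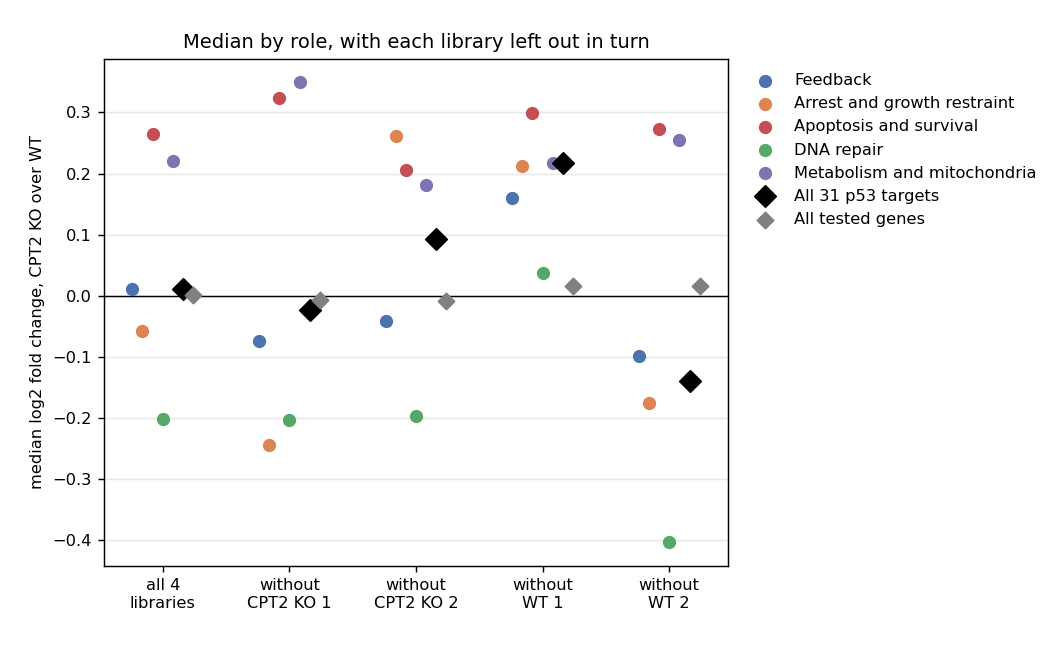
Median log2 fold change (CPT2 KO label over WT label) of each role group, of all 31 p53 targets and of all tested genes, with all 4 libraries and with each left out in turn. The apoptosis and metabolism medians stay above 0.18 in every setting, the repair median is above 0 only without replicate 1 labelled WT, and the median of all tested genes stays within 0.02 of 0.

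Reads of overlapping genes could be given to either partner or left uncounted, since the sources used here do not state a strand setting. Exons of 13 of the 31 targets share positions with another gene in GENCODE 29, 12 of them with a gene on the opposite strand. The partner reached 100 counts in a library for 3 targets. XPC overlaps LSM3, with 1565 and 1562 counts in the libraries labelled CPT2 KO against 888 and 1546 in those labelled WT, POLH overlaps GTPBP2, with 1118 to 1384 counts over the 4 libraries, and TNFRSF10B overlaps RHOBTB2, with 127 to 236. The partners of the other 10 targets, MDM2 and CDKN1A among them, had at most 40 counts a library. FAS, also among the 10, had 18 and 17 counts in CPT2 KO-labelled libraries, against 6 and 10 in the WT-labelled ones. Its partner ACTA2 had 2 and 6 against 4 and 6 counts. CPT2 shares exon positions with AL606760.2 and C1orf123 on the opposite strand. AL606760.2 had at most 2 counts a library, and C1orf123 had no row under that symbol.

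Other direct p53 targets gave the same count of 0 calls in edgeR, 28 tested of 32 listed, with a median log2 fold change of 0.10, 17 positive and 11 negative, and 6 at an unadjusted p under 0.05, beside 9.08% of all tested genes. Those 6 were CYFIP2 (-0.45) and PLTP (-0.35), both lower, and TRIM22 (0.60), SLC12A4 (0.45), KITLG (0.43) and PCNA (0.36), higher with the CPT2 KO label, at adjusted p of 0.363 to 0.541. PCNA, the sliding clamp of replication, had 285 and 338 CPM with the CPT2 KO label, against 212 and 274 CPM with the WT label. SESN2, the stress-induced sestrin, had 27.8 and 29.1 CPM with the CPT2 KO label, against 29.8 and 27.3 CPM with the WT label, and its log2 fold change was -0.0029. GDF15, a secreted stress factor, had 24 and 26 counts in CPT2 KO-labelled libraries, against 23 and 47 counts in the WT-labelled ones.

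Regulators and cofactors of p53 also gave 0 calls, 24 tested of 26 listed, with a median log2 fold change of -0.00044 and 4 at an unadjusted p under 0.05 (beside 9.08% of all tested genes), TP73, PPP1R13L, EP300 and HUWE1, all with negative log2 fold changes. TP73, a relative of p53 that binds the same elements, had 78 and 21 counts in CPT2 KO-labelled libraries, against 127 and 100 counts in the WT-labelled ones (log2 fold change -1.17 with SE 0.47, adjusted p = 0.499 in edgeR). PPP1R13L (iASPP), an inhibitor of p53, had 7.82 and 7.11 CPM with the CPT2 KO label, against 16.96 and 9.42 CPM with the WT label (log2 fold change -0.82 with SE 0.29, adjusted p = 0.428 in edgeR). The coactivator EP300 had 162 and 149 CPM with the CPT2 KO label, against 201 and 201 CPM with the WT label, and a log2 fold change of -0.38 (adjusted p = 0.394 in edgeR). Of the damage kinases, ATM had 69.9 and 60.1 CPM with the CPT2 KO label, against 82.1 and 74.1 CPM with the WT label, and CHEK2 had 102 and 83.2 CPM with the CPT2 KO label, against 76.6 and 81.1 CPM with the WT label. USP7, the deubiquitinase of MDM2 and p53, had 369 and 381 CPM with the CPT2 KO label, against 346 and 353 CPM with the WT label. CDKN2A, whose ARF product blocks MDM2, had 2 and 1 counts in CPT2 KO-labelled libraries, against 3 and 0 counts in the WT-labelled ones, and TP63, the other relative of p53, had 3 and 0 counts in CPT2 KO-labelled libraries, against 0 and 3 counts in the WT-labelled ones, both below the filter. The genes named here were picked from the list after their values were seen.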

How the data were processed

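HISAT2 2.1.0 and featureCounts 1.6.4 with hg38 (GRCh38) are listed, per the submitters' processing notes. The deposited table holds raw counts per gene symbol with gene lengths, per the file headers. No source used here states the strand setting, the handling of multiple alignments or the annotation release.

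The filter on low counts was filterByExpr by group and the scaling TMM. The test was edgeR's quasi-likelihood test (edgeR 4.0.16, R 4.3.3, robust, group as the only term), and p-values were adjusted by Benjamini-Hochberg across the 17564 genes kept, with calls at 0.05. The SE is the size of the log2 fold change divided by the square root of F, and 95% intervals use the degrees of freedom of the fit. CPM and TPM were computed from the counts. Alternatives (13) were other scalings and filters, DESeq2 1.42.0, voom of limma 3.58.1, the replicate number as a block, mitochondrial genes left out of library sizes and each library left out in turn, where a lone sample is assumed to vary like the other group. Scripts were tested on simulated data.

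Full statistics are given, in each role group, for the gene with the highest level per length and for the most positive and the most negative log2 fold change. MDM2, CDKN1A, BAX, PERP, AEN, TRIAP1, PLK3 and genes named from other lists were added after their values were seen. The 31 genes, the lists and the rules were chosen with earlier results of these data known. One listed cell cycle symbol had no row and was not analysed here.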

Additional observations from a re-analysis of the deposited data

How the results depend on the processing

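With 2 libraries a group, small differences were not detectable, and leaving 1 out assumes that the lone library varies like the other group. Genes called higher and lower over the whole table numbered 279 and 190 with no filter on low counts, 149 and 46 with DESeq2 and 204 and 108 with the replicate number as a block, and limma-voom called 7 lower. A single p53 target was called higher (1), PLK2, with no filter, with DESeq2 and with the block. The labels do not say what a replicate number marks. Deviations from the group means correlated at 0.22 over all tested genes between replicate 1 labelled CPT2 KO and replicate 1 labelled WT. With 2 libraries a group, the deviations of replicate 2 mirror these. Leaving out 1 library in turn gave 44 to 626 genes called higher and 5 to 712 lower, 0 to 1 targets called higher and 0 to 2 lower, and a target median of -0.14 to 0.22. The log2 fold change of CPT2 ran from 1.64 to 1.95, with an edgeR adjusted p of 0.138 without replicate 1 labelled CPT2 KO. FAS gave no value under the stricter filter.

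CCNG1 was at -0.010 with library size only, and BBC3 at 0.11 with limma-voom and 0.036 with the replicate block. With 1 library left out in turn, log2 fold changes ran from -0.041 to 0.12 for MDM2, from -0.14 to 0.18 for CCNG1, from -0.85 to 0.16 for TP53INP1, from -0.43 to 0.24 for CDKN1A, from -0.72 to 0.64 for BTG2, from -0.17 to 0.058 for ZMAT3, from -0.61 to 0.77 for BBC3, from -0.24 to 0.17 for TNFRSF10B, from -0.29 to 0.62 for PHLDA3, from -0.40 to 0.28 for RRM2B, from -0.40 to 0.21 for DDB2, from -0.044 to 0.37 for SESN1. The cause was not tested. Among the recomputed log2 fold changes of the targets, 375 kept direction and call, 20 turned sign and 7 gained a call.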

Other observations

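Cell cycle genes that p53 represses through p21 and the DREAM complex, 20 tested, gave 0 calls in edgeR and a median log2 fold change of 0.046, with 12 positive, 8 negative and 1 at an unadjusted p under 0.05, beside 9.08% of all tested genes. That gene was MCM5, a subunit of the replicative helicase, with 227 and 251 CPM with the CPT2 KO label, against 183 and 205 CPM with the WT label (log2 fold change 0.30 with SE 0.13, adjusted p = 0.543 in edgeR). CDK1, the kinase that drives mitosis, had 201 and 214 CPM with the CPT2 KO label, against 191 and 211 CPM with the WT label, and CCNB1, its cyclin, had 233 and 296 CPM with the CPT2 KO label, against 214 and 276 CPM with the WT label. TOP2A, the topoisomerase that untangles replicated chromosomes, had 759 and 657 CPM with the CPT2 KO label, against 851 and 859 CPM with the WT label, both CPT2 KO values below both WT values (log2 fold change -0.27, adjusted p in edgeR = 0.599). MKI67, the proliferation marker, had 289 and 267 CPM with the CPT2 KO label, against 281 and 343 CPM with the WT label. Log2 fold changes of the 20 genes ran from -0.27 to 0.36. Replicate 2 labelled CPT2 KO was the highest library for 14 of the 20, against 29.2% of all tested genes.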
